A study of Mus musculus with 6 samples.

Results

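Ctps2 encodes a CTP synthase, the enzyme that turns UTP into CTP in the last step of pyrimidine nucleotide synthesis. It was examined here with 7 other genes of that pathway in microglia sorted from the optic nerves of mice with an Nf1 mutation. The 8 genes (Ctps2, Ctps, Cad, Dhodh, Umps, Cmpk1, Nme1 and Nme2) were taken by symbol from a table of 37447 genes. The set was chosen by the FPKM of Ctps2, which lay lower in every FMC library than in both FM libraries, so its genotype difference is given as a description with no test. The other 7 were listed for their place in the pathway. All 8 passed the filter on low values (at least 1 FPKM in at least 2 of 6 libraries).

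The FM group holds 2 libraries from mice with 1 floxed and 1 mutant allele of Nf1, the Ras-inhibiting tumour suppressor lost in neurofibromatosis type 1. The FMC group holds 4 libraries from mice with the same Nf1 genotype plus a GFAP-Cre transgene, whose promoter is active in astroglia. Cre is thus not directed at microglia, and the controls carry the Nf1 alleles too. All mice were C57BL/6 and 3 months old. FM 1, FMC 2 and FMC 3 are labelled male and FM 2, FMC 1 and FMC 4 female. The libraries are called biological replicates, and the labels used here do not say how many animals went into each. The study concerns microglia of Nf1 optic glioma, and the comparison of FMC with FM asks how their transcripts differ. Values are FPKM, fragments scaled to transcript length and to the library total, so levels of different genes can be set side by side on this scale. Between 13390 and 15562 genes reached 1 FPKM in a library.

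Cells make pyrimidine nucleotides from glutamine, bicarbonate and aspartate. Cad, a single protein with several enzyme activities, starts the route, Dhodh oxidises dihydroorotate in mitochondria, and Umps makes UMP. Kinases then add phosphates: Cmpk1 turns UMP into UDP and CMP into CDP, and nucleoside diphosphate kinases such as Nme1 and Nme2 make the triphosphates. CTP synthase, of which mice have the paralogs Ctps and Ctps2, aminates UTP with glutamine. CTP serves RNA synthesis and the building of phospholipids and sialylated glycans, and lymphocytes that divide are known to lean on CTP synthase 1, the product of Ctps.

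The promoters of both CTP synthase genes and of the neighbouring pair Nme1 and Nme2 are shown because the genotype patterns described below run alike within the first pair and differ within the second. Each window runs from 250 bases before to 50 bases after a transcription start, 5′ to 3′ on the strand of the gene, from RefSeq on GRCm38.p6. Windows were found for 7 of the 8 genes, and where a gene had several, the one nearest the start of a coding GENCODE transcript was used. Capitals mark the motifs CACGTG (an E-box, its own reverse complement) and GGGCGG or its reverse complement CCGCCC (a GC box). CCAAT and its reverse complement ATTGG were also searched.
Ctps2 (chrX:162901345-162901644, plus strand): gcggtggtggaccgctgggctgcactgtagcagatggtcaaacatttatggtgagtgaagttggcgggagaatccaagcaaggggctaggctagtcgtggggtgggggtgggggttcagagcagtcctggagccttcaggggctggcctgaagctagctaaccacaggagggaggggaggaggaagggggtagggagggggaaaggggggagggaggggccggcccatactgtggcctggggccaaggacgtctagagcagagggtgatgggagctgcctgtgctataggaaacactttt
Ctps (chr4:120570227-120570526, minus strand): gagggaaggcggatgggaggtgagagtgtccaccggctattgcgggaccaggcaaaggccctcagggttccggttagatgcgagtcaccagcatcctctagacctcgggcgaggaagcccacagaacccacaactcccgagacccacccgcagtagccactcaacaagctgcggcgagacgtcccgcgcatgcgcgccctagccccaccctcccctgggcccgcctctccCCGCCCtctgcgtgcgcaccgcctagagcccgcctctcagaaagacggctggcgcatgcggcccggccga
Nme1 (chr11:93968223-93968522, minus strand): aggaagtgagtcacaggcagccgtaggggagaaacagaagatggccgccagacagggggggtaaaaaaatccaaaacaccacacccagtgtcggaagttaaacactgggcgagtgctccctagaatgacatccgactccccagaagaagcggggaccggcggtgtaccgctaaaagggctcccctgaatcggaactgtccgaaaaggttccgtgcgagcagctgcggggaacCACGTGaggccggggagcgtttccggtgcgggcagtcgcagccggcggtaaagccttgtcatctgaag
Nme2 (chr11:93955734-93956033, minus strand): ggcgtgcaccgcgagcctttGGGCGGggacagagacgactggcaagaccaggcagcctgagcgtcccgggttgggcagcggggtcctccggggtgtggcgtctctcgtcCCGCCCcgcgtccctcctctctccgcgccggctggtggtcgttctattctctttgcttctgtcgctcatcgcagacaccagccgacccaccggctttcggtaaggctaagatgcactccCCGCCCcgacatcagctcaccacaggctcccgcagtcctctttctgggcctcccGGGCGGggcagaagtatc
The E-box was present in 1 of 7 windows, that of Nme1, against 7.15% of all 32851 windows in the table. A GC box was present in 5 of 7 windows (35.7% of all windows), among them Ctps with 1 and Nme2 with 4, and not in those of Ctps2 and Nme1. CCAAT was in 0 of 7 (37.4% of all windows). These are matches of letters in a window, not sites.

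Ctps2 was by far the most abundant transcript of the 8 genes in the FM libraries. FM 1 and FM 2 held 670.4 and 520.4 FPKM, and FMC 1 to FMC 4 held 64.8, 125, 98.0 and 53.3 FPKM. The groups did not overlap. In FMC 1 and FMC 4 Nme2 was the more abundant transcript (138 and 155 FPKM), while Ctps2 led in FMC 2 and FMC 3. Among the 37021 genes with a value in every library, Ctps2 ranked 52nd in FM 1 and 146th in FM 2. It ranked 1324th, 452nd, 734th and 1903rd in FMC 1 to FMC 4. The ratio of the group means (595 ± 106 FPKM in FM, SD, n = 2; 85.3 ± 32.6 FPKM in FMC, SD, n = 4) was 6.98. On the log2(FPKM + 1) scale they lay -2.86 ± 0.49 (SE) apart, FMC minus FM as in every genotype difference below.

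Ctps, the paralog, lay in the same order at lower levels. FM 1 and FM 2 held 57.5 and 26.9 FPKM, and FMC 1 to FMC 4 held 8.74, 14.7, 11.7 and 2.85 FPKM, again without overlap. The FM mean was 42.2 ± 21.7 FPKM (SD, n = 2) and the FMC mean 9.50 ± 5.05 FPKM (SD, n = 4). The log2 difference of -2.12 ± 0.71 (SE) missed the threshold of 0.05 in the fit over all genes (limma, adjusted p = 0.695; unadjusted p = 0.0151). Over the 6 libraries Ctps had a Pearson r of 0.93 with Ctps2, the 35th highest among the 9879 other genes that passed the filter and had a mean of at least 5 FPKM. The libraries share their genotype groups, so this is a description. Ctps (ENSMUSG00000028633) lies on chromosome 4 from 120212473 to 120242881 in mm9, the build of the table.

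Summed over both CTP synthases, FM 1 and FM 2 held 728 and 547 FPKM, and FMC 1 to FMC 4 held 73.6, 140, 110 and 56.1 FPKM. Ctps2 made up 92.1% and 95.1% of that sum in FM 1 and FM 2, and 88.1%, 89.5%, 89.3% and 94.9% in FMC 1 to FMC 4. A scaling factor per library cannot change this share, and the groups overlap in it. Per length, Ctps2 stood between 7.41 times (FMC 1) and 19.4 times (FM 2) the level of Ctps. Their coding sequences are identical at 71.7% of 1743 aligned bases, and no exact run longer than 20 bases is shared between the transcripts compared, as computed from GENCODE vM21.

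**Figure D1:**
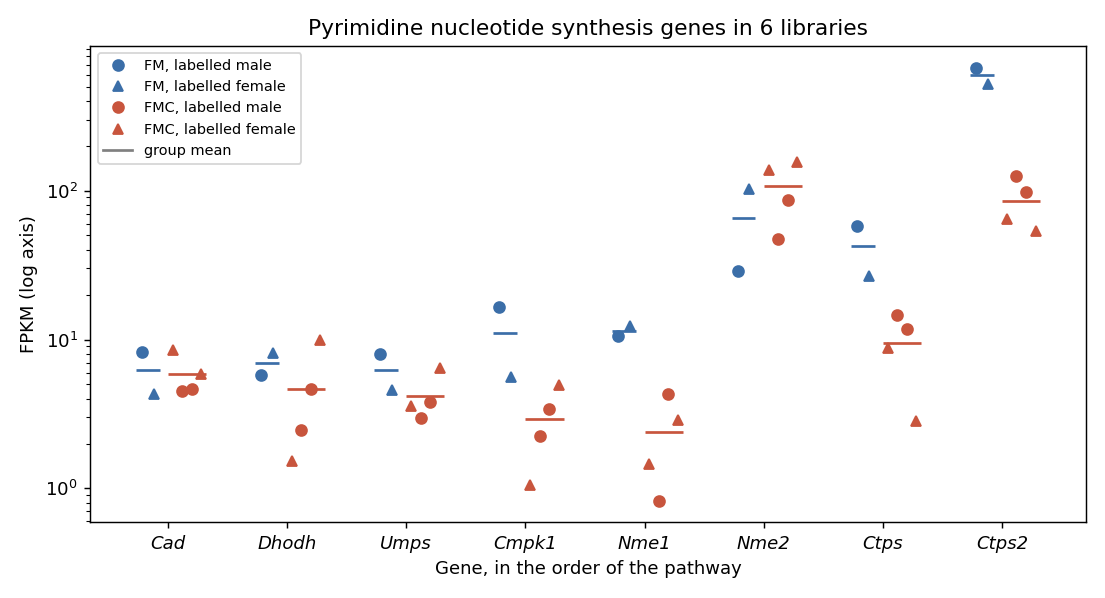
FPKM (log axis) of the 8 genes in each of the 6 libraries, in pathway order. Blue marks FM and red FMC, circles libraries labelled male and triangles female, and lines the group means. Ctps2 and Ctps lie lower in all FMC libraries than in both FM libraries, while Cad, Dhodh, Umps and Nme2 overlap.

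The first enzymes of the route were at modest levels and overlapped between genotypes. For Cad, FM 1 and FM 2 held 8.23 and 4.32 FPKM, and FMC 1 to FMC 4 held 8.502, 4.53, 4.67 and 5.89 FPKM. Its log2 difference was -0.06 ± 0.68 (SE, limma adjusted p = 0.999), and its sign changed with the scaling between libraries (0.067 with median ratio scaling, 0.10 with quantile normalization). Of the 8 genes, Cad (ENSMUSG00000013629, chromosome 5, 31357153 to 31380852) had the genotype difference closest to 0.

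Dhodh, the mitochondrial step, held 5.77 and 8.07 FPKM in FM 1 and FM 2, and 1.54, 2.48, 4.66 and 9.92 FPKM across FMC 1 to FMC 4. FMC 4 lay above both FM libraries, and the other FMC libraries lay below both. The log2 difference was -0.70 ± 0.82 (SE, limma adjusted p = 0.998). Umps held 7.97 and 4.596 FPKM in FM 1 and FM 2, and 3.58, 2.95, 3.81 and 6.48 FPKM across FMC 1 to FMC 4. It differed by -0.49 ± 0.71 on the log2 scale (SE, limma adjusted p = 0.999). Gm15829, a gene model that overlaps Umps in the table, was at 0.444 FPKM or less in every library. FMC 4 was the only FMC library in which Umps reached the FM range. In mm9 Dhodh (ENSMUSG00000031730) lies on chromosome 8 from 112115243 to 112132573, and Umps (ENSMUSG00000022814) on chromosome 16 from 33954868 to 33967124.

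The kinases split. Cmpk1, the UMP-CMP kinase, held 16.6 and 5.63 FPKM in FM 1 and FM 2, and 1.06, 2.26, 3.42 and 4.92 FPKM across FMC 1 to FMC 4. The groups did not overlap, by a margin of less than 1 FPKM between FM 2 and FMC 4. Its log2 difference of -1.57 ± 0.81 (SE) did not pass (limma, adjusted p = 0.993). Without FM 1 it was -0.86 and without FM 2 it was -2.27, so its size differed with the control library used. Cmpk1 (ENSMUSG00000028719) lies on chromosome 4 from 114631941 to 114659846 in mm9.

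Nme1 held 10.5 and 12.3 FPKM in FM 1 and FM 2, and 1.47, 0.828, 4.32 and 2.89 FPKM across FMC 1 to FMC 4, without overlap. Its means were 11.4 ± 1.3 FPKM (SD, n = 2) and 2.38 ± 1.56 FPKM (SD, n = 4). The log2 difference of -1.996 ± 0.77 (SE) missed the threshold (limma, adjusted p = 0.799; unadjusted p = 0.0296). Nme2 held 28.9 and 102 FPKM in FM 1 and FM 2, and 138, 47.2, 86.4 and 155 FPKM across FMC 1 to FMC 4, so the groups overlapped. It differed by 0.81 ± 0.67 on the log2 scale (SE, limma adjusted p = 0.993), and by -0.083 without FM 1.

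Nme1 (ENSMUSG00000037601) and Nme2 (ENSMUSG00000020857) lie next to each other on chromosome 11, from 93818293 to 93829835 and from 93811128 to 93817573 in the mm9 build of the table. Nme1 made up 26.7% and 10.7% of their summed FPKM in FM 1 and FM 2, and 1.05%, 1.72%, 4.76% and 1.83% in FMC 1 to FMC 4. The groups did not overlap in this share, which a scaling factor per library cannot change. The sum ran 39.4 and 115 FPKM in FM 1 and FM 2, and 139, 48.0, 90.7 and 158 FPKM across FMC 1 to FMC 4, so the total of the pair overlapped between genotypes. A gene model that joins both genes, Gm20390, overlaps them in the table and was at 2.34 FPKM or less in every library. Nme1 and Nme2 coding sequences are identical at 80.3% of 456 bases, and the longest exact run shared by their transcripts is 29 bases. How reads of this pair and of Gm20390 were divided is not stated, so their values are uncertain.

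**Figure D2:**
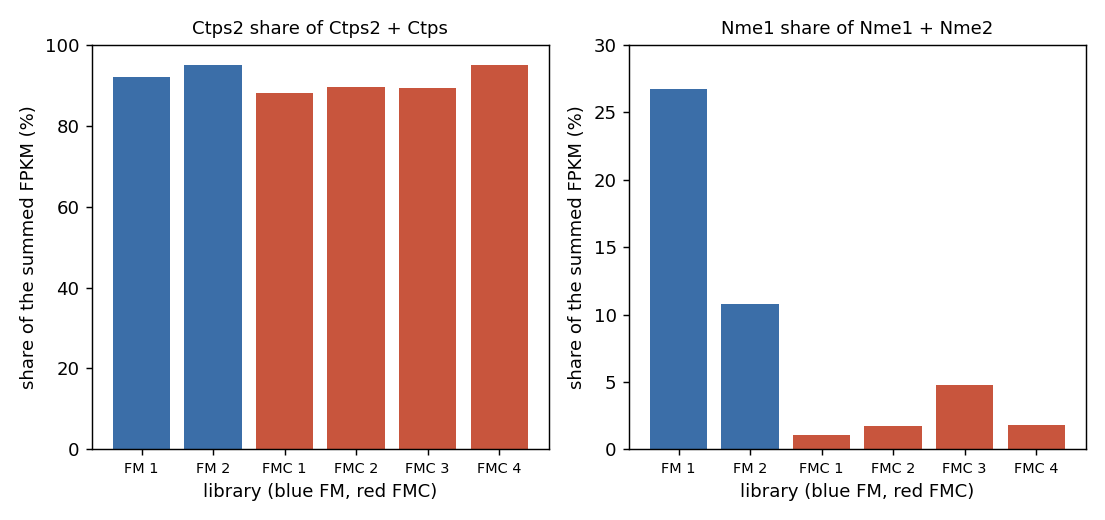
Share of Ctps2 in the summed FPKM of Ctps2 and Ctps, and of Nme1 in that of Nme1 and Nme2, in percent, for each library (blue FM, red FMC; the vertical scales differ). The Ctps2 share runs from 88.1% to 95.1% with overlap, and the Nme1 share is 10.7% or more in FM and 4.76% or less in FMC.

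In 4 of the 8 genes (Ctps2, Ctps, Cmpk1 and Nme1) all FMC libraries lay below both FM libraries, where 8.22% of the 18208 genes tested did so. The reverse order, FMC above both, was seen in 0 of 8 (4.34% of all genes). Ctps2 is 1 of the 4 by the way it was chosen. The same 4 genes lay below after median ratio scaling (7.06% of all genes) and after quantile normalization (6.79%). Those scalings moved the median log2 difference of all genes from -0.12 to -0.01 and 0.04. Leaving out Ctps2, the log2 difference was below 0 in 6 of the other 7 genes, against 56.5% of all genes. Cad is among the 6, at -0.06, and its sign changed with the scaling. None of the 7 genes other than Ctps2 passed limma at an adjusted p under 0.05, and 2 of them, Ctps and Nme1, had an unadjusted p under 0.05. Of the 18208 genes tested, 973 had an unadjusted p under 0.05 (limma), 765 of them lower in FMC and 208 higher. Across all genes limma called 5 (0.0275%), all lower in FMC. That count was 0 without FM 1, FM 2, FMC 2 or FMC 3, and 4 higher and 4 lower without FMC 4. With a pseudocount of 0.1 it was 1 higher and 0 lower, and with adjacent title dates as a block 2 higher and 1 lower.

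Ctps2 (ENSMUSG00000031360) lies on chromosome X from 159339170 to 159470440 in mm9, and the labels give the sex of each mouse, which the choice of Ctps2 did not use. Within each genotype the libraries labelled female were below those labelled male. The female FM library held 520.4 FPKM against 670.4 FPKM in the male. The female FMC libraries held 64.8 and 53.3 FPKM against 125 and 98.0 FPKM in the males. With genotype in the fit, females were lower by a log2 difference of -0.72 ± 0.33 (SE), which did not pass (limma, adjusted p = 0.685; unadjusted p = 0.0624). Ctps had the same order, at -1.16 ± 0.57 (SE, limma adjusted p = 0.706). These were 2 of the 8 genes with females below males in both genotypes, where 5.63% of all genes tested and 3.68% of 897 genes on chromosome X had that order.

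Nme2 had the opposite order, with 102 FPKM in the female and 28.9 FPKM in the male FM library. The female FMC libraries held 138 and 155 FPKM and the male ones 47.2 and 86.4 FPKM. The log2 difference of 1.39 ± 0.40 (SE) did not pass (limma, adjusted p = 0.470; unadjusted p = 0.00837), and 13% of all genes had females above males in both genotypes. Limma called 0 genes for sex (0%; 1354 at an unadjusted p under 0.05) and 0 for the interaction of genotype and sex (0%; 686 at an unadjusted p under 0.05). The count for sex was 4 without FMC 1, 2 without FMC 2, FM 1 or FM 2, and 1 without FMC 4. Over all genes the median sex difference was 0.15, and 0.0099 after median ratio scaling. FMC 1, labelled female, had 16.3 FPKM of Xist, against 0.819 and 1.22 FPKM in FM 2 and FMC 4, the other libraries labelled female. Of 4 Y-linked genes it held 16.3 FPKM of Uty and 6.18 FPKM of Ddx3y, near the male libraries (24.0 to 30.1 and 5.82 to 11.0 FPKM). It held 0.926 FPKM of Kdm5d and 3.37 FPKM of Eif2s3y, below them (11.2 to 13.1 and 57.8 to 114 FPKM). Without FMC 1 the sex difference was -0.75 for Ctps2 (limma, adjusted p = 0.550), -1.53 for Ctps and 1.49 for Nme2.

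The gene S100g, which encodes a calcium-binding protein, lies inside the span of Ctps2 in the table, from 159399924 to 159402531. It is on the opposite strand and shares no exonic base with Ctps2 in GENCODE vM21. S100g held 13.2 and 20.7 FPKM in FM 1 and FM 2, and 12.4, 0, 0.162 and 0.150 FPKM across FMC 1 to FMC 4. All FMC libraries thus lay below both FM libraries (8.22% of all genes), with FMC 1 close to FM 1. The log2 difference of S100g was -3.09. If strand was not used in the counting, intronic reads of this span cannot be given to a strand. Exonic reads of the 2 genes differ in position by that annotation. Of the 4 nearest named genes with signal outside the span of Ctps2, 2 on either side, none lay lower in all FMC libraries. Txlng held 16.6 and 29.8 FPKM in FM against 6.90 to 18.4 FPKM in FMC, and Syap1 held 8.60 and 14.5 FPKM against 6.54 to 16.9 FPKM. On the other side Ap1s2 held 21.2 and 10.3 FPKM in FM against 4.67 to 15.98 FPKM in FMC. Zrsr2 lay higher in all FMC libraries, with 19.1 and 14.1 FPKM in FM against 22.8 to 116 FPKM in FMC. The groups overlapped in Txlng, Syap1 and Ap1s2.

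The 5 named genes whose pattern over the 6 libraries was most like that of Ctps2 had a Pearson r between 0.96 and 0.97 on the log2(FPKM + 1) scale, given as a description. The pseudogene Vmn2r-ps125 held 28.4 and 10.4 FPKM in FM, 0.681 FPKM in FMC 2, and was listed at 0 in the other FMC libraries. Nup43, a nuclear pore component, held 15.8 and 13.9 FPKM in FM against 2.31 to 3.53 FPKM in FMC. Hbb-b1, an adult beta globin, held 60.7 and 50.2 FPKM in FM against 3.86 to 9.03 FPKM in FMC. Coil, which encodes the Cajal body protein coilin, held 10.2 and 10.5 FPKM in FM against 2.89 to 5.24 FPKM in FMC. Cyp2f2, a cytochrome P450 of airway club cells, held 80.2 and 48.7 FPKM in FM against 1.23 to 14.8 FPKM in FMC. Globin and pseudogene reads can be shared with near-identical copies, so those values are uncertain.

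Transcripts of other tissues had lower values in the FMC libraries too. Of the 6 erythroid genes listed, 0 passed limma (0.0275% of all genes). An unadjusted p under 0.05 (limma) was found for 5 of 6 erythroid genes, against 973 of the 18208 genes tested. Of 6 erythroid genes, 5 lay lower in all FMC libraries than in both FM libraries (8.22% of all genes), and their summed level was 128 to 158 FPKM in FM and 23.6 to 32.7 FPKM in FMC. Hba-a1, an alpha globin, held 37.7 and 23.4 FPKM in FM against 1.16 to 7.57 FPKM in FMC (limma adjusted p = 0.659, and 0.231 for Hbb-b1). A list of 14 lung epithelial genes was written after Cyp2f2 and other lung genes were seen in the data, and it is given no test. Of these, 8 lay lower in all FMC libraries than in both FM libraries, none was at 0 in every library, and all 13 that passed the filter had a log2 difference below 0 (median -2.19). The same counts, 5 of 6 and 8 of 14, held under both other scalings. Their sum ran 1337 and 2246 FPKM in FM 1 and FM 2, and 555, 351, 99.9 and 209 FPKM across FMC 1 to FMC 4. Scgb1a1, the secretoglobin of club cells, held 833 and 1680 FPKM in FM 1 and FM 2, and 432, 218, 70.1 and 149 FPKM across FMC 1 to FMC 4. Sftpc, the surfactant protein C of alveolar type II cells, held 229 and 336 FPKM in FM 1 and FM 2, and 78.5, 65.2, 7.85 and 40.0 FPKM across FMC 1 to FMC 4. Their part in the level of Ctps2 was not tested, nor was whether they came from other cells in the sort or from outside these samples. In a sorted bulk sample, more cells of a type and more RNA per cell cannot be told apart.

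**Figure D3:**
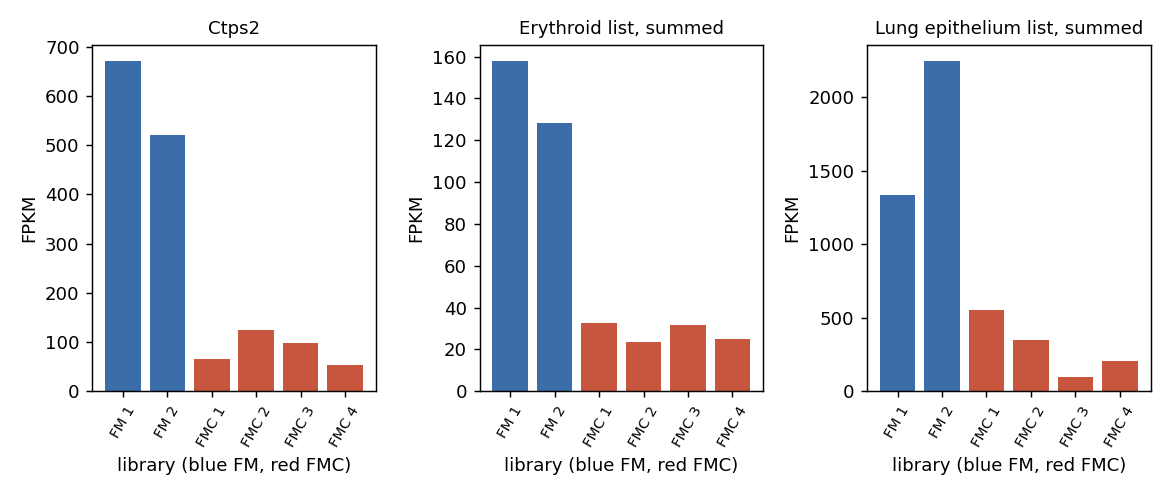
FPKM of Ctps2, summed FPKM of 6 erythroid genes and summed FPKM of 14 lung epithelial genes, per library (blue FM, red FMC; the vertical scales differ). In each panel both FM libraries stand above all 4 FMC libraries.

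The microglial markers were present in every library. All 8 were detected, with sums of 2591 and 4833 FPKM in FM against 2693 to 4065 FPKM in FMC. In 1 of the 8 (8.22% of all genes), Fcrls (named after its values were seen), all FMC libraries lay lower. It held 21.2 and 50.6 FPKM in FM against 5.23 to 21.1 FPKM in FMC. After median ratio scaling 0 of the 8 markers lay below both FM libraries and 1 above both (7.06% and 5.84% of all genes). After quantile normalization 2 lay below and 1 above (6.79% and 6.70% of all genes). Cx3cr1, the fractalkine receptor, was between 70.3 and 110 FPKM, and the purinergic receptor P2ry12 between 185 and 403 FPKM. T cell markers summed to 18.3 and 29.2 FPKM in FM against 27.1 to 137 FPKM in FMC, highest in FMC 1, with Cd3e between 0.908 and 20.4 FPKM and Cd3d between 0.287 and 6.98 FPKM. The T cell list had 8 of 9 log2 differences above 0 (median 0.92), and 2 of 9 were higher in every FMC library than in both FM libraries (4.34% of all genes). The same order held for 1 of 6 B cell and 1 of 6 monocyte and neutrophil markers. Limma called 0 genes of these lists (0.0275% of all genes). An unadjusted p under 0.05 (limma) was found for 1 B cell and 1 neutrophil marker, against 973 of the 18208 genes tested. Ms4a1, a B cell marker, was between 0.0885 and 7.19 FPKM. Among proliferation markers Mki67 held 18.1 and 10.5 FPKM in FM against 9.03 to 23.8 FPKM in FMC. Top2a, a replication enzyme, held 41.8 and 34.4 FPKM in FM against 10.1 to 26.3 FPKM in FMC (-1.12 ± 0.53 SE on the log2 scale). It was the 1 of 8 proliferation markers that lay lower in all FMC libraries (8.22% of all genes). Their sum overlapped, at 119 and 149 FPKM in FM against 80.2 to 133 FPKM in FMC. Of the 7 that passed the filter, 4 had a log2 difference below 0 and 3 above. The sums of the monocyte and neutrophil (with Ly6c2 and Ccr2), oligodendrocyte (Mbp), astrocyte (Gfap, Aqp4) and neuron and photoreceptor lists (Rbfox3, Snap25) overlapped between genotypes. So did that of endothelium, mural cells and fibroblasts (Cldn5, Pecam1), at 101 and 164 FPKM in FM against 128 FPKM in FMC 1 and 22.6 to 31.5 FPKM in the other FMC libraries. In 3 of its 9 markers all FMC libraries lay lower, and in 2 of the 7 that passed the filter (8.22% of all genes tested). The same 2 had an unadjusted p under 0.05 (limma), against 973 of the 18208 genes tested, and limma called 0 of the list. Cldn5, among the 3, did not pass it, at 0.118 FPKM or less in FMC and 0.568 and 1.09 FPKM in FM. Dcn, a matrix proteoglycan, made up 90.2 FPKM of the sum in FMC 1. Mgp, a calcification inhibitor, held 74.5 and 128 FPKM in FM against 3.77 to 15.1 FPKM in FMC (both named after their values were seen).

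Outside the 8 genes, the rest of pyrimidine metabolism gave 0 calls in either direction (limma), where 0.0275% of all genes tested were called. Of the genes listed beside the 8, Slc1a5 alone had an unadjusted p under 0.05 (limma, 0.0141), where 973 of the 18208 genes tested did. Among 9 nucleotide kinases, Nme4, a mitochondrial member of the Nme family, lay lower in all FMC libraries, with 4.65 and 5.87 FPKM in FM against 0.120 to 1.93 FPKM in FMC (-1.64 ± 0.74 SE on the log2 scale). With Cmpk1 and Nme1 that made 3 of 9 kinases (8.22% of all genes), and the list median was -0.66 against -0.12 over all genes. The 9 include Cmpk1, Nme1 and Nme2, already counted among the 8 genes. Outside these, Nme4 alone lay lower in all FMC libraries. In the salvage list 7 of 8 genes passed the filter, with a median of -0.02. Tk2, the mitochondrial thymidine kinase, held 3.89 and 7.04 FPKM in FM against 1.84 to 2.55 FPKM in FMC, and the uridine-cytidine kinase Uck1 overlapped (log2 difference -0.87 ± 0.91 SE). In the deoxynucleotide list 8 of 9 passed the filter, with a median of 0.08. Dut, which removes dUTP, held 8.56 and 7.89 FPKM in FM 1 and FM 2, and 0.143, 0.593, 6.16 and 1.12 FPKM across FMC 1 to FMC 4, and its groups overlapped after either other scaling. Rrm1, a subunit of ribonucleotide reductase, overlapped as deposited (0.10 ± 0.82 SE).

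Of the pyrimidine breakdown genes 6 of 12 passed the filter, with a median of 0.09. Dpyd, the first enzyme of uracil breakdown, was at 1.82 FPKM or less in every library. Of the nucleoside transporters 4 of 6 passed, with a median of 0.00. Slc28a2, a concentrative transporter, held 6.13 and 5.32 FPKM in FM against 3.46 to 3.91 FPKM in FMC, and its groups overlapped after quantile normalization. Slc29a1, an equilibrative transporter, overlapped (0.27 ± 0.58 SE). Genes that use CTP for phospholipids and sialic acid had a median of -0.10 over 10 of 11, with 0 of 10 below both FM libraries. Pcyt1a, the rate-limiting enzyme of phosphatidylcholine synthesis, differed by -0.35 ± 0.64 (SE). The purine route, measured as a comparison, had a median of -0.21 over 13 genes. Of these, 0 lay below and 0 above both FM libraries (8.22% and 4.34% of all genes). Prps1, which makes the ribose donor of both routes, differed by 0.79 ± 0.91 (SE). Among 5 glutamine supply genes Slc1a5, a glutamine transporter, lay lower in all FMC libraries. It held 30.6 and 20.3 FPKM in FM 1 and FM 2, and 8.83, 7.99, 2.95 and 4.63 FPKM across FMC 1 to FMC 4 (-1.96 ± 0.64 SE on the log2 scale; limma adjusted p = 0.689). Glutamine synthetase, Glul, overlapped (-0.27 ± 0.61 SE).

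**Figure D4:**
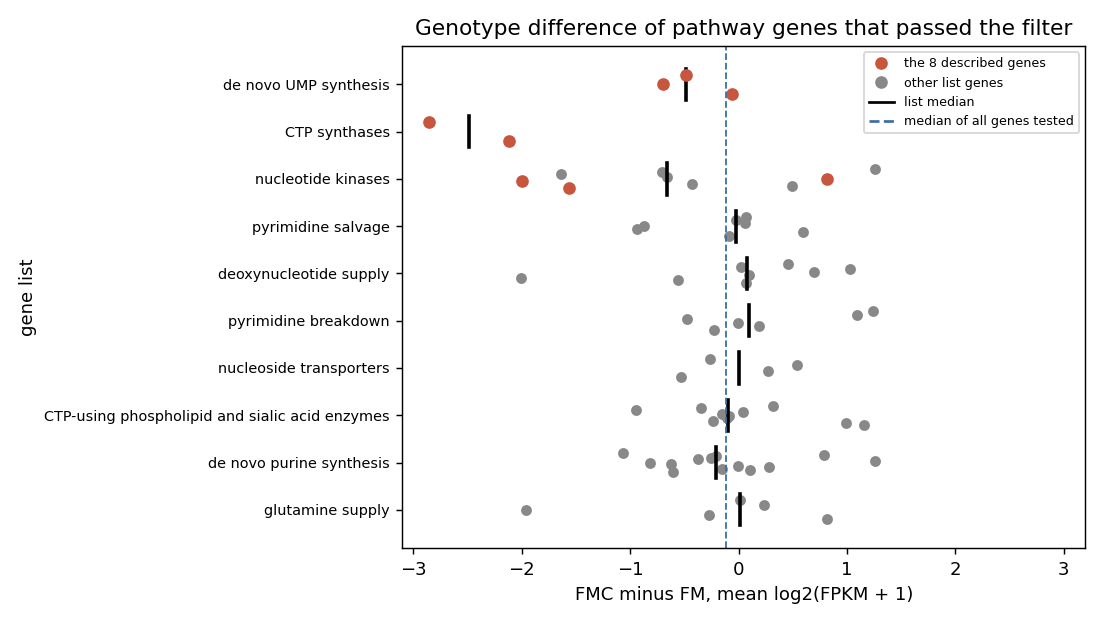
Genotype difference (FMC minus FM, mean log2(FPKM + 1)) of each gene that passed the filter, by list. Red points are the 8 described genes, black bars list medians, and the dashed line the median of all 18208 genes (-0.12). The CTP synthases stand at -2.86 and -2.12, and the medians of the salvage, deoxynucleotide, breakdown and transporter lists lie between -0.02 and 0.09.

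The titles of FM 1 and FMC 2, and of FM 2 and FMC 3, carry dates 1 day apart, and what the dates record is not stated. Within these pairs Ctps2 differed by -2.41 and -2.40 (log2), Ctps by -1.90 and -1.13, Cmpk1 by -2.43 and -0.59 and Nme1 by -2.66 and -1.33. The second pair differs in the labelled sex as well. Nme2 differed by 0.69 in the first pair and -0.24 in the second. Over all 16 other settings the difference of Ctps2 ran from -3.06 to -2.40 and that of Ctps from -2.65 to -1.52. That of Nme1 ran from -2.55 to -1.74 and that of Cmpk1 from -2.27 to -0.86. Several of these settings, such as the filter and the trend, cannot change the difference. Leaving out 1 library cannot turn its sign where the groups do not overlap.

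**Figure D5:**
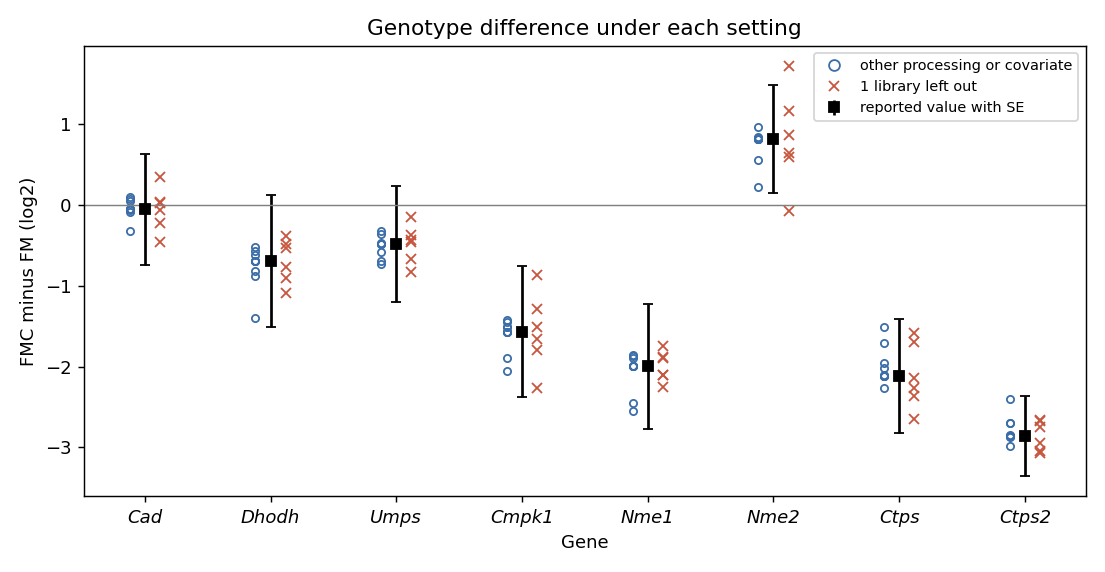
Genotype difference (log2) of the 8 genes as reported (black squares with SE), under other processing, covariates or blocks (open blue circles) and with 1 library left out (red crosses). Ctps2, Ctps, Nme1 and Cmpk1, whose groups do not overlap, stay below 0 in every setting shown, which leaving out a library could not change. Cad and Nme2 lie on both sides of 0.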

How the data were processed

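Microglia were sorted from optic nerve, and their RNA was made into cDNA by the Ovation kit and read on an Illumina HiSeq, per the labels' protocols. Listed in the submitters' processing notes are Cufflinks 2.0.2, TopHat2 2.0.4, Bowtie2 2.0.0, CASAVA 1.8.2 and mm9, with no settings. The deposited table gives the authors' FPKM per gene and library. Starts were written from 1. Read totals were not used here, so precision is judged from the spread between libraries. The table lists 426 genes with no value in at least 1 library, which were left out. FPKM is relative to the rest of its library, and whether strand was used is not given in these sources.

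Testing covered the 18208 genes that reached 1 FPKM in at least 2 of 6 libraries, as log2(FPKM + 1), which understates changes of low genes. Two-sided limma tests (3.58.1, R 4.3.3) used an intensity trend. P-values were adjusted by Benjamini-Hochberg over these genes, with a threshold of 0.05. Sex was tested with genotype in the model, and an interaction fit was added later, with the data in view. The genes and lists were chosen with earlier results of these data known. Named genes are the 8 members. From each pathway list they are up to 3 genes whose groups do not overlap and the first listed, and from each marker list the first 2. For 2 of the marker lists 1 of these genes is not reported here. Genes that overlap a member and the 2 nearest on either side of Ctps2 are also named, and the 5 most correlated with Ctps2, leaving out unnamed models and small RNAs. The 14 lung genes were listed after values were seen. Alternatives covered the pseudocount, filter, scaling, trend, weights, covariates, blocks and each library left out. The scripts were tested on simulated data.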

Additional observations from a re-analysis of the deposited data

Results flagged for a closer look

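Each of the following has 1 FMC library whose distance to the nearest other FMC library, as a share of the range of all 4, is above Dixon's 95% critical value for 4 samples. Of 66 named genes and shares examined, 9 are listed here, and chance flags about 1 in 20 groups. None of the 8 pyrimidine synthesis genes is among them. The share was 0.837 for Dut, where FMC 3 stood at 6.16 FPKM. It was 0.987 for S100g, where FMC 1 stood at 12.4 FPKM, and 0.954 for Sftpd, where FMC 1 stood at 17.8 FPKM. It was 0.935 for Syap1, where FMC 4 stood at 16.9 FPKM, and 0.959 for Cldn18, where FMC 2 stood at 9.23 FPKM. Cldn18 and Sftpd belong to the lung epithelial list. At low levels it was 0.931 for Rbfox3 (1.31 FPKM in FMC 3), 0.952 for Snap25 (1.57 FPKM in FMC 2), 1 for Cldn5 (0.118 FPKM in FMC 1) and 1 for Vmn2r-ps125 (0.681 FPKM in FMC 2).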

How the results depend on the processing

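Ctps2, Ctps, Cmpk1, Nme1, Dhodh and Umps kept the sign of their genotype difference in every alternative that gave a value. Where the groups do not overlap, as in Ctps2, Ctps, Cmpk1 and Nme1, leaving out a library cannot turn the sign. The filter and the trend cannot change the difference of any gene. Umps, Nme4, Tk2, Rrm1, Dut and Slc28a2 had no value with a mean of at least 5 FPKM. Cad turned to 0.067 with median ratio scaling, 0.10 with quantile normalization and 0.049 with the replicate block, and ran from -0.45 to 0.34 with 1 library left out. With 1 library left out Nme2 ran from -0.083 to 1.71, Slc29a1 from -0.22 to 0.76, Prps1 from -0.58 to 2.15, Glul from -1.01 to 0.46 and Rrm1 from -0.21 to 0.37. Rrm1 was -0.61 with adjacent title dates as a block. The count of 5 genes past the threshold for genotype (all lower) became 1 (higher) with a pseudocount of 0.1, 0 without a filter, 0 with a mean of at least 5 FPKM, 10 without an intensity trend, 0 with sex as a covariate and 3 (2 higher, 1 lower) with adjacent title dates as a block. It ran from 0 to 8 with 1 library left out, where fits with 1 FM library take its variation to be that of FMC. It was 0 without FM 1, FM 2, FMC 2 or FMC 3 and 8 (4 higher, 4 lower) without FMC 4. The count of 0 for sex ran from 0 to 4 with 1 library left out, 4 without FMC 1. The deviations of same-numbered libraries from their group means correlated at 0.03 and -0.06. With 2 FM libraries the FM deviations mirror each other, so these values cannot decide whether the replicate numbers pair the libraries. With the replicate block 0 genes passed for genotype. The cause was not tested. The small number of libraries and the unused read totals limit the precision.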
